A study of Rattus norvegicus with 320 samples.

Results

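The microRNAs described here are miR-378a, miR-193a, miR-193b and miR-365, small RNAs known from work on fat, muscle and liver metabolism, in 11 organs of the rat from week 2 to week 104 of life. They were taken as every entry of the count table named rno-miR-378a, rno-miR-193a, rno-miR-193b or rno-miR-365 with any arm suffix, which gave 7 of the 616 miRNAs: rno-miR-378a-3p, rno-miR-378a-5p, rno-miR-365-3p, rno-miR-193a-3p, rno-miR-193a-5p, rno-miR-193b-3p and rno-miR-193b-5p. The suffixes 3p and 5p name the 2 arms of a hairpin precursor, either of which can be loaded into the silencing complex. Arms are counted as separate members throughout, so counts of calls are not of independent miRNAs. Of the 7 members, 5 had a mean count of at least 10 per sample, and the 5p arms of miR-193a and miR-193b did not.

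A miRNA guides a protein complex to messenger RNAs that pair with its seed, bases 2 to 8 from its 5′ end, and lowers their translation or stability. The miR-378a hairpin lies within the gene of PGC-1β (Ppargc1b), a coactivator of mitochondrial genes, and has been described as a regulator of oxidative energy use. The miRNAs miR-193b and miR-365 have been described as promoting the formation of brown fat, the tissue that burns lipid for heat.

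The samples were ground organ tissue of Fischer 344 rats of both sexes at weeks 2, 6, 21 and 104, which stand for juvenile, adolescent, adult and aged animals. Small RNA of each sample was sequenced, with 4 rats in each of 80 groups of organ, sex and age. Adrenal gland, brain, heart, kidney, liver, lung, skeletal muscle, spleen and thymus had 32 samples each, and testis and uterus 16 each. Several organs came from each rat, and since the labels do not give which samples share a rat, the tests between organs treat them as independent. Of the 320 samples, 318 were kept, and total counts in these ran from 315550 to 10571766, with the lowest median in liver, at 1040989. Levels are given as CPM, a sample's count of the miRNA divided by its total count and multiplied by 1e6. At the lowest total, a single count is 3.17 CPM, and at the highest it is 0.0946 CPM.

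Among the kept samples, 11 libraries stood apart from the rest of their organ and age, 10 of them by a mean correlation at least 0.01 below the group's median and 1 by at least 10 times the striated muscle miRNAs of the others. They were adrenal gland male week 21 replicates 1 and 3, spleen female week 104 replicates 1 and 3, lung male week 21 replicate 3, thymus male week 6 replicate 4, thymus male week 104 replicate 1, liver male week 21 replicate 1, skeletal muscle male week 21 replicate 3, brain female week 21 replicate 2 and brain female week 104 replicate 4. Counts of calls between ages, between sexes and of ratios are also given without them.

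By abundance the members fell into an unequal set. The 3p arm of miR-378a had a mean count of 38997 per sample and ranked 18 among the 616, with 1.45% of all counts on average. The others were far lower. Mean counts were 381 for miR-365-3p, 342 for miR-378a-5p, 236 for miR-193b-3p and 149 for miR-193a-3p. The 5p arms of miR-193a and miR-193b had mean counts of 5.92 and 1.12, and no count in 43 and 130 of the 318 samples.

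The mature sequences show which members can share targets through the seed and which could share reads. They are given 5′ to 3′ with the seed in capitals. All 7 member sequences were the same as in the RefSeq miRNA table (build GRCr8). The miRNA miR-378b is not a member and is shown because it differs from miR-378a-3p at a single base.
miR-378a-3p: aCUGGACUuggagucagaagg
miR-378b: aGUGGACUuggagucagaagg
miR-378a-5p: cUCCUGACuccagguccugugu
miR-365-3p: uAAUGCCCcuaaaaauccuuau
miR-193a-3p: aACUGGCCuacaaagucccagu
miR-193b-3p: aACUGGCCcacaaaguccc
miR-193a-5p: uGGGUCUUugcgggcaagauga
miR-193b-5p: gGGGUUUUgagggcgaga

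The 3p arms of miR-193a and miR-193b had the seed ACUGGCC in common, which no other entry of the table carried, and the seeds of the other 5 members were each found in no other entry. Counted from 1 at the 5′ end, miR-193b-3p differed from miR-193a-3p by U9C over its 19 bases, and miR-193a-3p went on to 22 bases. The change from miR-378a-3p to miR-378b was C2G, inside the seed, over 21 bases. The mean count of miR-378b was 0.307% that of miR-378a-3p, and this share was 0.197% in kidney and 0.431% in heart, the lowest and highest organ means. The study aligned reads with a mismatched base allowed. Whether reads of miR-378a-3p with a changed base were counted as miR-378b was not tested. Nor was it tested whether reads passed between miR-193a-3p and miR-193b-3p.

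In the RefSeq table of the rat genome (GRCr8) the members are listed at 4 hairpins in 3 places. Whether the genome holds further copies of these hairpins was not tested. Both arms of miR-378a lay on the minus strand of chromosome 18 within Ppargc1b, the 3p arm at 57128925 to 57128945 and the 5p arm at 57128962 to 57128983. The hairpins of miR-193a (65170317 to 65170402) and miR-365 (65184217 to 65184302) lay on the plus strand of chromosome 10 within the span of the gene Faul2, and 13826 bases separated the miR-365 hairpin from mature miR-193a-3p. The hairpin of miR-193b (1824944 to 1825026, plus strand of chromosome 10) lay in the noncoding gene LOC102547286, and the nearest other miRNA of the table, miR-484, was 430008 bases away. At the miR-378a and miR-193a hairpins the annotation also places a miRNA on the opposite strand, and since the strand used in counting is not stated, the strands cannot be told apart.

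The first question was in which organs the members were high. Skeletal muscle held the most miR-378a of both arms at all 4 ages, liver the most miR-193a-3p, and liver also the most miR-365-3p until week 21. The level of miR-193b-3p had no such fixed place, with its highest organ mean in spleen at week 2 and in skeletal muscle later. For those spleens the study states low RNA integrity. Organs were compared in pairs by edgeR on TMM-scaled counts (a scaling that sets the bulk of miRNAs level between samples), and a difference is called where the p-value adjusted over all 616 miRNAs is under 0.05 and the difference is at least 2-fold. Because organ tissue was ground, fewer cells of a type and less RNA per cell cannot be told apart here or in any later result.

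In skeletal muscle the mean level of miR-378a-3p was 38662 CPM (SD 5252, n = 8) at week 2, 49708 (SD 8338) at week 6, 41041 (SD 9806) at week 21 and 51636 (SD 13293) at week 104. These were the highest organ means of their ages, and skeletal muscle was called above each of the 10 other organs at every age. Over the next organ the difference was 1.05 on the log2 scale at week 2 (over heart), 1.02 at week 6 (heart), 1.14 at week 21 (liver, SE 0.20, adjusted p = 1.37e-06) and 1.08 at week 104 (thymus). These steps depended on the scaling: under total count alone they were 0.49, 1.16, 0.82 and 0.36, of which only that at week 6 was called, and skeletal muscle was called above 9 of 10 organs at the other ages. With the lane covariate the step at week 2 was 0.99 and not called. In heart, the other striated muscle sampled, the means at the 4 ages were 27592, 22180, 17212 and 15480 CPM. Testis had the lowest mean CPM at each age, at 1469, 1639, 2105 and 2704 (n = 4 each). At week 104, however, the TMM-scaled test called brain lower than testis, by -1.52 (adjusted p = 4.75e-07), and brain was called below all 10 other organs. Under total count alone brain and testis did not differ by the call then (0.07).

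The remaining organs lay between these ends and moved in place with age. Liver means of miR-378a-3p were 10451, 20560, 23297 and 23692 CPM at weeks 2, 6, 21 and 104, and thymus means were 6154, 6483, 13798 and 40284. Liver thus passed heart by week 21, and thymus stood next to skeletal muscle by week 104. Adrenal gland means were 12152, 15421, 13671 and 3327 CPM, and kidney means 7885, 13978, 12231 and 8192. Spleen lay at 8073, 7189, 8230 and 9814 CPM (n = 7 at week 104) and lung at 5046, 5446, 6600 and 5399. In adrenal gland the level at week 104 was far under that at the earlier ages, while spleen and lung stayed within a narrow range. Uterus had means of 4640, 5338, 5781 and 4900 CPM (n = 4 at each age), and brain 3590, 3707 (n = 7), 2796 and 2848. At week 21, 3 of the 10 steps between neighbours in the order were called: skeletal muscle over liver, kidney over spleen and uterus over brain. The other 7 neighbours did not differ by the call, and under total count alone uterus over brain was the only called step.

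For miR-378a-5p, the less abundant arm of the same hairpin, the order had the same top. Means in skeletal muscle were 424, 551, 543 and 523 CPM at the 4 ages, and at week 21 liver came next at 165 CPM, lower by 2.09 on the log2 scale (SE 0.23, adjusted p = 7.54e-13 by edgeR, called). At week 21 brain (26.0 CPM) and testis (18.3 CPM) were at the foot.

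Liver had the highest mean of miR-365-3p at weeks 2, 6 and 21, at 318 CPM (SD 47.0, n = 8), 329 (SD 86.2) and 377.7 (SD 80.7), and its mean at week 104 was 424 (SD 127). Adrenal gland lay close to it at first, with means of 275, 227, 238 and 116 CPM. At week 104 thymus had the highest mean, 515 CPM (SD 306), after 40.4, 39.5 and 98.3 CPM at the earlier ages, and its difference from liver was 0.17 on the log2 scale and was not called. Thymus therefore went from near the foot of the order of this miRNA to its top. Means in skeletal muscle were 110, 140, 192 and 253 CPM, in lung 102, 149, 149 and 149, and in uterus 122, 94.9, 137 and 105. Heart had 117, 59.4, 59.4 and 63.9 CPM, kidney 70.0, 84.8, 56.1 and 58.1, and spleen 111, 49.6, 50.1 and 61.1. Brain (53.5, 40.8, 32.6 and 36.1 CPM) and testis (42.0, 32.1, 29.4 and 18.4) were low at every age. At week 21 the called steps between neighbours were 4 of 10: skeletal muscle over lung, uterus over thymus, kidney over spleen and spleen over brain. None of these was called under total count alone.

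The strongest contrast between organs among the members was that of miR-193a-3p. Liver means were 196 CPM (SD 119, n = 8) at week 2, 688 (SD 302) at week 6, 832 (SD 359) at week 21 and 555 (SD 283) at week 104, and liver was called above each of the 10 other organs at every age, also under total count alone. At week 21 adrenal gland was next, at 80.3 CPM, lower by 3.26 on the log2 scale (SE 0.37, adjusted p = 1.78e-12 by edgeR). The highest and lowest group means, liver at week 21 and brain at week 6 (3.39 CPM), differed 246-fold, against 35.1-fold for miR-378a-3p and 28.0-fold for miR-365-3p. At week 21 thymus (53.0 CPM), lung (47.1), uterus (46.4), skeletal muscle (37.0), spleen (28.3) and then kidney followed adrenal gland, and heart (11.2), brain (8.04) and testis (7.17) were last. Called steps between neighbours were 4 of 10, at liver, skeletal muscle over spleen, kidney over heart and heart over brain, and under total count alone only that at liver was.

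Organs differed least in miR-193b-3p, with 13.0-fold between the highest and lowest group means. Spleen was highest at week 2, at 239 CPM (SD 66.9, n = 8). It was called above 8 of the 10 other organs, but not above liver or skeletal muscle. Brain, the next organ at 146 CPM, was among those called below it (not called under total count alone). The study states low RNA integrity for the spleens of week 2, and its part in their rank was not tested. Skeletal muscle was highest at week 6 (132 CPM), week 21 (140) and week 104 (238), with uterus beside it at 140 CPM at week 21 and 156 at week 104. The lowest organ was adrenal gland at weeks 2 and 104, at 27.2 and 18.3 CPM, and thymus at weeks 6 and 21, at 28.0 and 35.3 CPM. At week 21, 2 of the 10 steps were called, heart over brain and adrenal gland over testis, so most neighbours in the order of this miRNA did not differ by the call, and under total count alone 0 did.

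**Figure D1:**
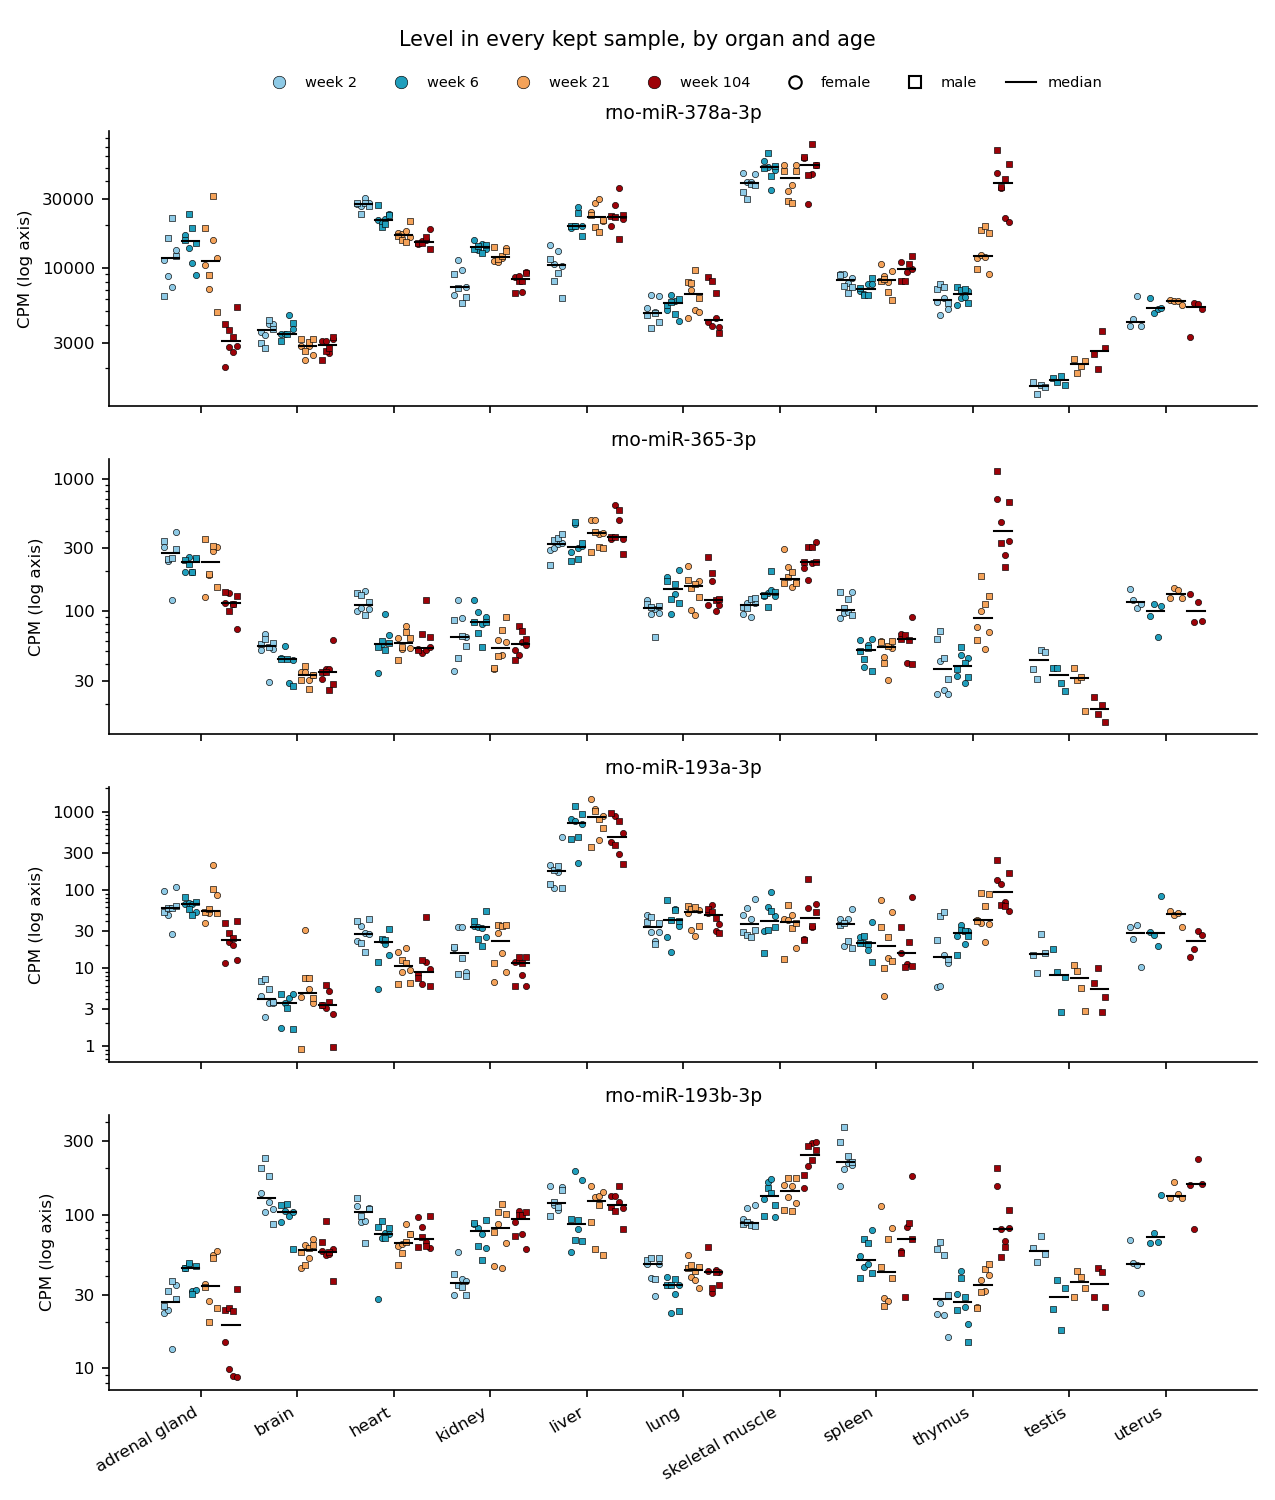
Level of the 4 main members in each kept sample, in CPM on a log axis, by organ and age, with the median of each organ and age as a bar. The highest values of rno-miR-378a-3p are those of skeletal muscle and of thymus at week 104, and those of rno-miR-193a-3p are all from liver.

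Over all members and 55 pairs of organs, the called differences out of 385 numbered 226 at week 6, 241 at week 21 and 260 at week 104, with the fewest at week 2. At weeks 2, 6, 21 and 104, in this order, the shares over all 616 miRNAs were 52.5%, 52.7%, 52.1% and 47.2%, and those of the members 54.0%, 58.7%, 62.6% and 67.5%. Under total count alone the members' shares did not rise steadily, at 52.7%, 54.0%, 52.2% and 60.3%, and those of all miRNAs were 55.9%, 54.2%, 54.4% and 52.5%. At week 21, by TMM, 40 of 55 pairs were called for miR-365-3p and for miR-193a-3p, 38 for miR-378a-3p, 36 for miR-378a-5p and 32 for miR-193b-3p. For miR-193a-5p and miR-193b-5p they were 39 and 16.

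The next question was what changed while the rats grew, from week 2 to week 21. Calls of the members were mostly upward, and thymus (5 of 7 members), skeletal muscle (5) and liver (3) held most of them. In liver, miR-378a-3p rose 3.13-fold and miR-193a-3p 5.87-fold by TMM. Under 11 other ways of processing both stayed called, at log2 differences down to 1.17 and 2.10. In skeletal muscle miR-365-3p, miR-193b-3p and the 5p arms of 3 hairpins were called higher, in the organ with the largest share of all miRNAs called higher, and 4 of these 5 calls were lost under total count alone. The main fall was that of miR-193b-3p in spleen, by 1.86 on the log2 scale. Each organ had its own fit, with 8 samples at each age (4 in testis and uterus).

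Across the 11 organs, 19 of the 77 tests of the members were called higher at week 21 and 2 lower, while over all miRNAs 11.4% of tests were called higher and 19.3% lower. Of the members' calls 90.5% were upward, against 37.2% over all miRNAs. Without the libraries that stood apart the counts were 18 and 2. The scaling matters here: using total count alone in place of TMM shifted the median log2 difference of all miRNAs by between -0.68 (skeletal muscle) and -0.05 (thymus), the members had 11 calls higher and 6 lower (64.7% upward), and all miRNAs had 19.1% upward. The members' median log2 difference was 0.61 and that of all miRNAs -0.06. Arms of a hairpin count here as separate members, so the calls are not independent. Both arms were called for miR-378a in liver and thymus, for miR-193a in thymus and for miR-193b in skeletal muscle and spleen.

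In liver, where 8.44% of all miRNAs were called higher, levels of miR-378a-3p were 6161, 10436 and 14497 CPM (lowest, median and highest) at week 2 and 17807, 22504 and 30230 CPM at week 21. All 8 adult livers lay above all 8 juvenile ones. The difference was 1.65 on the log2 scale (SE 0.18, adjusted p = 5.06e-10 by edgeR). For miR-378a-5p the difference in liver was 1.75 (SE 0.17). The miRNA miR-378b, near-identical to the 3p arm, was called higher there too, by 2.27. Whether it counted changed reads of miR-378a-3p was not tested.

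Levels of miR-193a-3p in liver were 105, 175 and 472 CPM at week 2 and 357, 846 and 1443 CPM at week 21. The groups overlapped through liver female week 2 replicate 4, at 472 CPM, and 6 of 8 adult livers lay above every juvenile one. The difference was 2.55 (SE 0.33, adjusted p = 3.08e-08). Markers of liver cells, summed over miR-122-5p and miR-802-5p, were 21561, 32155 and 37304 CPM at week 2 and 21606, 30038 and 35375 CPM at week 21, mostly miR-122-5p. Of these 2 miR-802-5p was called higher, by 1.86, and miR-122-5p was not called. For miR-365-3p in liver the difference was 0.70 and was not called, and for miR-193b-3p it was 0.21, turning to -0.25 under total count alone, and not called.

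Thymus, the organ where T cells mature, had calls for 5 of the 7 members, all higher at week 21, where 7.79% of all miRNAs were called higher. The levels of miR-378a-3p were 4645, 5911 and 7640 CPM at week 2 and 9082, 12081 and 19638 CPM at week 21, with no overlap. The difference was 1.21 (SE 0.18, adjusted p = 1.57e-06). Levels of miR-365-3p were 23.7, 36.6 and 71.4 CPM at week 2 and 51.7, 88.5 and 184 CPM at week 21. For miR-365-3p 5 of 8 adult samples lay above every juvenile one, and the highest was thymus male week 21 replicate 2. The difference was 1.35 (SE 0.26, adjusted p = 9.05e-05). The other calls in thymus were miR-193a-3p (1.55), miR-193a-5p (2.03) and miR-378a-5p (1.12), and miR-193b-3p was not called (0.15). Thymocyte markers, summed over miR-181a-5p and miR-181b-5p and mostly the former, were 319270, 416380 and 481462 CPM at week 2 and 262076, 329676 and 401205 CPM at week 21, and neither was called.

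In skeletal muscle, where 18.2% of all miRNAs were called higher, levels of miR-365-3p were 90.9, 111 and 126 CPM at week 2 and 153, 174 and 293 CPM at week 21. Every adult sample lay above every juvenile one. The difference was 1.66 (SE 0.15, adjusted p = 6.54e-12), and under total count alone it was 0.80 and not called. For miR-193b-3p the difference was 1.40 (SE 0.17, 0.57 and not called under total count alone) and for miR-378a-5p it was 1.20 (0.37 and not called under total count alone, and not called with DESeq2). The 5p arms of miR-193a and miR-193b were also called, at 2.20 and 2.26, from mean counts of 3.63 and 0.875 at week 2, and the call of miR-193b-5p was lost under total count alone, with the lane covariate and without replicate 4. The abundant arm miR-378a-3p had a difference of 0.95, under the 2-fold limit, and 0.09 under total count alone. Markers of striated muscle, led by miR-133a-3p, were called higher in 4 of 7 and summed to 59364, 75756 and 106022 CPM at week 2 and 111168, 133978 and 161233 CPM at week 21. Their part in these results was not tested.

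The spleen, which makes blood cells in the young rat, went the other way for miR-193b-3p, while 19.3% of all miRNAs were called lower there. Levels were 154, 219 and 372 CPM at week 2 and 25.3, 42.2 and 114 CPM at week 21. All 8 adult spleens lay below all 8 juvenile ones. The difference was -1.86 (SE 0.26, adjusted p = 6.59e-07). The level at week 6 was already 38.5, 50.7 and 79.7 CPM. For miR-365-3p all 8 adult spleens also lay below the juvenile ones, at a difference of -0.84 that was not called (-1.15 and called under total count alone). Markers of red blood cells, mostly miR-486, were called lower in 2 of 3, with sums of 120323, 184933 and 231055 CPM at week 2 and 34206, 62912 and 79880 CPM at week 21. The study's text also states lower RNA integrity for the spleens of week 2, and the part of either in the fall was not tested. The call of miR-193b-5p in spleen, at -2.22, came from counts near 0 and was lost with DESeq2, with all samples and whenever any replicate number was dropped.

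In uterus, where 11.7% of all miRNAs were called higher, the level of miR-193b-3p was 68.0, 48.3, 46.8 and 30.7 CPM in replicates 1 to 4 of week 2, and 128, 164, 137 and 128 CPM in those of week 21. All 4 adult samples lay above the juvenile ones. The difference was 1.94 (SE 0.32, adjusted p = 6.21e-05 by edgeR). Tested directly over all groups of organ and age by edgeR, the change in uterus exceeded that in spleen by 3.89 (SE 0.39, adjusted p = 2.23e-17). This pair was chosen after its values were seen, called higher in uterus and lower in spleen, so the p-value restates those calls. In uterus miR-193a-3p was 33.6, 23.5, 35.9 and 10.5 CPM at week 2 and 54.2, 48.0, 50.2 and 33.3 CPM at week 21. Its difference was 1.27 (0.84 and not called under total count alone), with 3 of 4 adult samples above every juvenile one. Markers of smooth muscle, led by miR-143-3p, were called higher in 2 of 2, and white blood cell markers in 4 of 5.

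Kidney and adrenal gland held further calls of miR-193b-3p, with 7.79% and 9.58% of all miRNAs called higher. In kidney the levels were 29.9, 35.8 and 57.3 CPM at week 2 and 44.7, 82.0 and 118 CPM at week 21, and 6 of 8 adult samples lay above every juvenile one. The difference was 1.29 (SE 0.12, adjusted p = 5.00e-11). In adrenal gland it was 1.03, close to the limit, and fell to 0.48 under total count alone and below 2-fold without adrenal gland male week 21 replicates 1 and 3, and the call was lost in 6 settings in all. In brain all 8 adult samples lay below the juvenile ones, with 86.7, 129 and 234 CPM at week 2 and 44.8, 59.3 and 69.6 CPM at week 21. That difference was -0.87 and not called (-1.32 and called under total count alone).

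Some results rested on few samples or on the scaling. In lung, where 10.2% of all miRNAs were called higher, miR-378a-5p was called higher by 1.12. This call was lost under total count alone (0.77) and with the lane covariate. Of the striated muscle markers 6 of 7 were called higher there. Their sum was 1293, 2093 and 3994 CPM at week 2 and 2032, 3638 and 17424 CPM at week 21, highest in lung male week 21 replicate 3. Without the libraries that stood apart, the marker calls of miR-133b-3p (0.63) and miR-1-3p (0.60) were lost. In brain, where 14% of all miRNAs were called higher, miR-193a-3p was called higher by 1.13 (adjusted p = 0.0182), with 2.41, 4.05 and 7.23 CPM at week 2 and 0.917, 4.83 and 30.8 CPM at week 21. The value of 30.8 CPM was that of brain female week 21 replicate 2, which held liver markers at 147 CPM, 33.9 times the median of the others, and the call was lost without the libraries that stood apart and in 5 other settings. In heart miR-378a-3p went from 23879, 27953 and 30553 CPM to 15181, 16848 and 21272 CPM with no overlap, while the TMM-scaled difference was 0.02 and that under total count alone -0.68, neither of them called.

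Other miRNAs of metabolism gave a mixed picture over the same interval, where 11.4% of all tests were called higher and 19.3% lower. Of 88 tests of 8 miRNAs described as promoting brown fat, 14 were called higher and 16 lower, with a median of 0.14. Both arms of miR-455 made up most of the falls, with miR-455-5p at a log2 difference of -3.15 in skeletal muscle and -2.06 in liver. The calls of miR-182 went both ways, among them 4.67 in adrenal gland, 2.20 in liver and -3.45 in testis. Of 88 tests of 8 miRNAs described as opposing brown fat, 17 were called higher and 6 lower (median 0.55), among them miR-34a-5p in testis (3.16) and miR-155-5p in lung (1.89). Of 88 tests of 8 miRNAs of lipid and glucose metabolism, 8 were called higher and 11 lower (median 0.03), and in liver 3 rose, miR-802-5p (1.86), miR-107-3p (1.11) and miR-33-5p (1.11), a regulator of cholesterol export. The liver miRNA miR-122-5p fell in 7 organs other than liver, among them uterus (-4.12) and kidney (-2.61).

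Marker lists of cell types, counted over the 11 organs, had calls in both directions, to be read beside the same 11.4% and 19.3% over all miRNAs. Striated muscle markers were called higher in 20 and lower in 4 of 77 tests, and liver cell markers in 1 and 9 of 22. White blood cell markers were higher in 24 and lower in 1 of 55, and nervous tissue markers higher in 12 and lower in 0 of 44. Red blood cell markers had 7 calls higher and 5 lower of 33, epithelium 9 and 7 of 55, smooth muscle 3 and 0 of 22, germ cells 12 and 9 of 55, and thymocytes 0 and 5 of 22. The lists overlap, since 6 names stand both in a marker list and in a metabolism list: miR-122-5p, miR-802-5p, miR-143-3p, miR-133a-3p, miR-133b-3p and miR-155-5p.

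From week 21 to week 104, as the rats aged, the members parted by organ. In thymus 5 of the 7 rose, led by miR-365-3p at 4.32-fold, and in adrenal gland 6 of 7 fell, of which 4 were still called without 2 adult libraries that stood apart. In testis 3 were called higher, and in kidney 1 was called lower. This comparison uses the same week 21 samples as the one with week 2, so that the values of both are not independent.

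In all, 8 of 77 tests were called higher and 7 lower, where 3.98% of all tests were called higher and 5.73% lower. Using total count alone in place of TMM shifted the median log2 difference of all miRNAs by -1.13 in testis, by -0.46 in uterus and by 0.34 in thymus, and the members then had 6 calls higher and 7 lower. Without the libraries that stood apart the counts were 6 and 5.

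In thymus, where 10.4% of all miRNAs were called higher, levels of miR-378a-3p were 20729, 39301 and 66044 CPM (lowest, median and highest) at week 104, against 9082, 12081 and 19638 CPM at week 21. All 8 aged samples lay above all 8 adult ones. The difference was 1.20 (SE 0.18, adjusted p = 1.22e-06), beside 1.21 from week 2 to week 21. For miR-365-3p levels were 216, 404 and 1132 CPM at week 104 against 51.7, 88.5 and 184 CPM, again with no overlap. The difference was 2.11 (SE 0.26, adjusted p = 3.27e-08), beside 1.35 in the earlier interval. The level of miR-193b-3p was 53.3, 80.8 and 202 CPM against 24.7, 34.7 and 47.7 CPM with no overlap, a difference of 1.17. The remaining calls were miR-193a-5p (1.76) and miR-378a-5p (1.05), and miR-193a-3p was not called (0.88, adjusted p = 0.00943).

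A single aged library, thymus male week 104 replicate 1, had the highest value of 4 of these 5 miRNAs, among them 66044 CPM of miR-378a-3p and 1132 CPM of miR-365-3p. Without it 3 of the 5 calls remained, miR-365-3p (1.76), miR-193a-5p (1.63) and miR-378a-3p (1.06), while miR-193b-3p (0.85) and miR-378a-5p (0.71) were under 2-fold. Without replicate 1 of both sexes and ages miR-378a-3p was under 2-fold as well, at 0.90. The call of miR-378a-5p was also lost with the replicate block.

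Marker miRNAs of cell types in thymus also differed between these ages. Thymocyte markers were called lower in 2 of 2, miR-181a-5p at -2.76 and miR-181b-5p at -2.51, and their sum was 14713, 71096 and 110215 CPM at week 104. The 3 aged samples lowest in thymocyte markers, male replicates 1 and 4 and female replicate 1, were the 3 highest in miR-378a-3p and in miR-365-3p. Red blood cell markers were called higher in 3 of 3, with sums of 1148, 1576 and 5278 CPM at week 21 and 6243, 15088 and 93486 CPM at week 104, mostly miR-486. White blood cell markers, led by miR-142-5p, were lower in 2 of 5 (31708, 41895 and 50497 CPM against 11709, 25042 and 29862 CPM). Of 5 epithelial markers 0 were called by edgeR, with sums of 978, 10300 and 13252 CPM at week 104 that were lowest in male replicate 1. Striated muscle markers, rich in the tissue with most miR-378a, summed to 69.3, 256 and 810 CPM at week 21 and 135, 206 and 1090 CPM at week 104, and 1 of 7 was called lower. The part of these shifts in the members' rise was not tested.

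In adrenal gland, which makes steroid and stress hormones, 4.22% of all miRNAs were called lower. Levels of miR-378a-3p were 4868, 11061 and 31902 CPM at week 21 and 2019, 3057 and 5333 CPM at week 104. Of the aged samples 7 of 8 lay below every adult one. The difference was -2.19 (SE 0.30, adjusted p = 4.20e-06), and that of miR-378a-5p was -2.36. Levels of miR-193a-3p were 37.6, 54.1 and 206 CPM at week 21 and 11.5, 23.1 and 39.9 CPM at week 104, with 7 of 8 aged samples below every adult one. The difference was -1.85 (SE 0.24, adjusted p = 1.99e-06). For miR-365-3p levels were 128, 236 and 349 CPM and then 73.9, 115 and 140 CPM, a difference of -1.21 (SE 0.20, adjusted p = 7.61e-05) with 5 of 8 aged samples below every adult one. The differences of miR-193a-5p and miR-193b-3p were -1.84 and -1.28.

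A pair of adult adrenal libraries weighed on these values. Male week 21 replicate 3 had the highest miR-378a-3p, 31902 CPM, together with striated muscle markers at 1748 CPM, 11.2 times the median of the others, and liver markers at 426 CPM, 21.2 times theirs. Male replicate 1 came next, at 18884 CPM, and had the lowest likeness to its group, 0.945 against a median of 0.982. Without both, miR-378a-3p (-1.46), miR-378a-5p (-1.60), miR-193a-3p (-1.61) and miR-193a-5p (-1.13) were still called, and miR-365-3p (-0.79) and miR-193b-3p (-0.89) were not. Without replicate 1 of both sexes and ages miR-365-3p was at -0.97 and not called. Over all samples striated muscle markers were called lower in 3 of 7, with sums of 82.4, 160 and 1748 CPM at week 21 and 59.6, 93.3 and 303 CPM at week 104, mostly miR-133a-3p, and of the liver markers miR-122-5p was called lower. Their part in the fall was not tested.

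**Figure D2:**
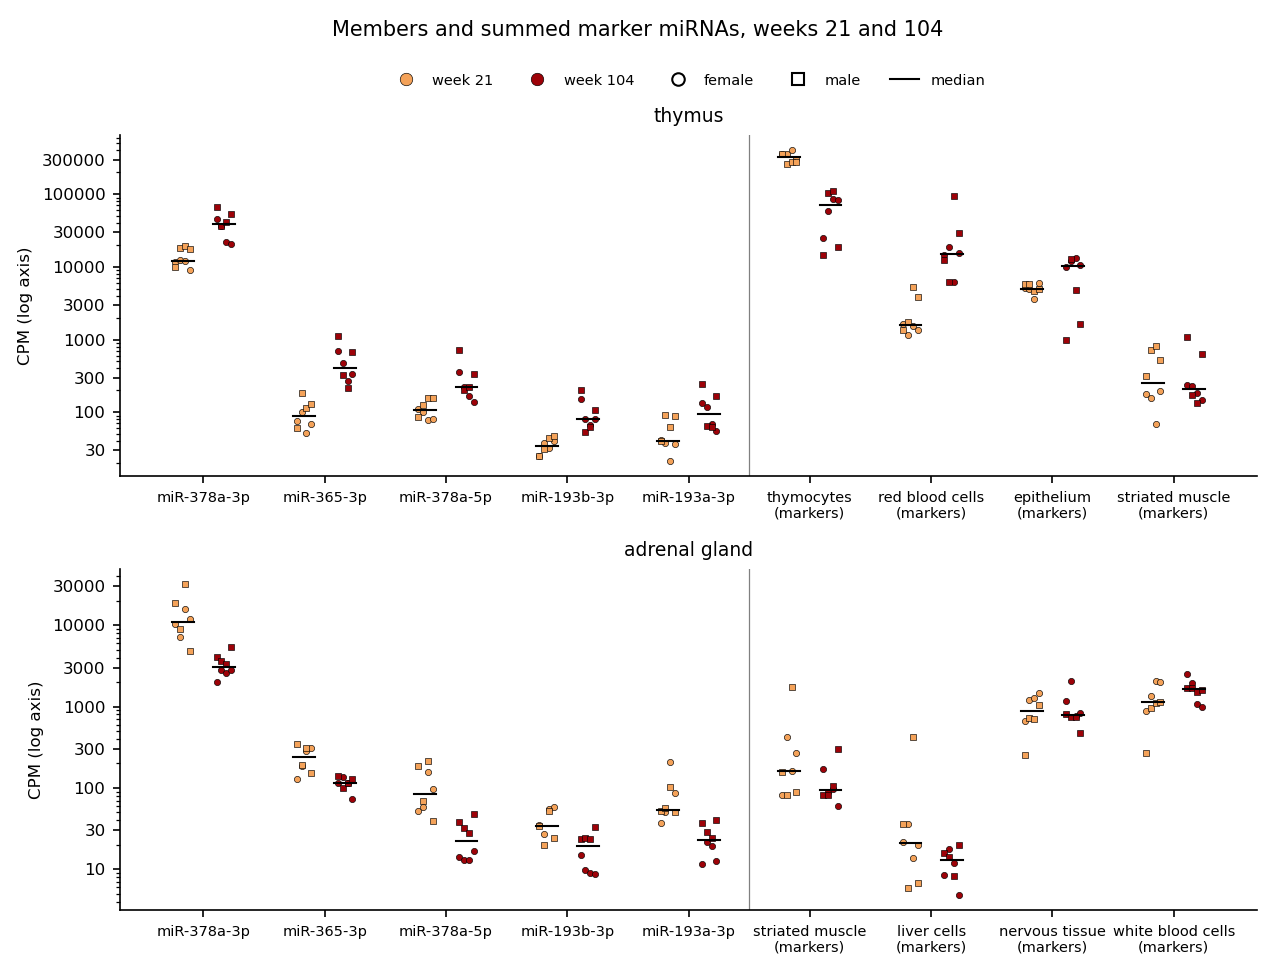
Level of 5 members and summed level of marker miRNAs in each sample of thymus and adrenal gland at weeks 21 and 104, in CPM on a log axis, with medians as bars. In thymus the aged samples of rno-miR-378a-3p and rno-miR-365-3p lie above all adult ones and the thymocyte markers below, and in adrenal gland most aged samples of the members lie below the adult ones.

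Testis showed calls that depended on the scaling, in an organ where 20.3% of all miRNAs were called higher at week 104 by TMM. Levels of miR-378a-3p were 2299, 1846, 2060 and 2213 CPM in replicates 1 to 4 of week 21 and 2496, 1948, 3614 and 2758 CPM in those of week 104, and those of miR-378a-5p were 13.7, 28.6, 15.3 and 15.6 CPM and then 27.6, 21.3, 32.0 and 39.0 CPM. The TMM-scaled differences were 1.79 (SE 0.29, adjusted p = 4.57e-05 by edgeR) and 2.10, and under total count alone they were 0.36 and 0.71 and not called. For miR-193b-3p, at 29.3, 42.9, 39.4 and 33.2 CPM and then 28.9, 44.9, 42.3 and 25.1 CPM, the difference was 1.34 by TMM and -0.04 under total count alone. Markers of germ cells, called lower in 5 of 5, summed to 191287, 170210, 187750 and 152773 CPM at week 21 and 2456, 1271, 124 and 77.3 CPM at week 104, led by miR-34c-5p. TMM and total count thus gave different readings in testis. The part of the germ cell miRNAs in this was not tested, nor which scaling reflects the amount per testis. The study also states that piRNA, another small RNA, dominated the libraries of adolescent and adult testis. Both scalings use miRNA counts only, so the share of miRNA among all reads enters neither.

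In kidney miR-193a-3p was called lower at week 104, by -1.01 (SE 0.24, adjusted p = 0.00362), just past the limit, in an organ where 1.14% of all miRNAs were called lower. At week 21 levels were 6.75, 28.6, 15.7 and 8.94 CPM in females and 11.6, 35.2, 34.4 and 35.8 CPM in males, and at week 104 they lay between 5.91 and 13.8 CPM with a median of 11.8 CPM. Of the aged samples 2 of 8 lay below every adult one. The call was lost with DESeq2 and in 4 other settings. For miR-378a-3p in kidney all 8 aged samples lay below the adult ones, at a difference of -0.63 that was not called, and in skeletal muscle miR-193b-3p had a difference of 0.84, not called, with 7 of 8 aged samples above every adult one.

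Over the other metabolic lists, 104 against 21 weeks gave fewer calls, as it did over all miRNAs (3.98% higher and 5.73% lower). The brown fat promoting miRNAs had 5 higher and 2 lower of 88 (median -0.06), the opposing ones 6 and 10 (median 0.10), and those of lipid and glucose metabolism 2 and 8 (median -0.08), beside a median of 0 over all miRNAs. In thymus miR-203a-3p rose by 1.14 while miR-93-5p (-1.73), miR-106b-5p (-1.65) and miR-33-5p (-1.51) fell. In adrenal gland miR-203a-3p (-1.40), miR-33-5p (-1.30) and miR-148a-3p (-1.06) were called lower with and without the libraries that stood apart. The calls of miR-196a-5p (-1.83), miR-122-5p (-2.17) and miR-133b-3p (-1.84) were lost without those libraries, at -0.83, -0.03 and -0.32. The near-identical miR-378b differed by 1.36 in thymus and -2.04 in adrenal gland. Without the libraries that stood apart these were 1.19 and -1.50. Whether it counted changed reads of miR-378a-3p was not tested. Among the marker lists, calls higher and lower were 2 and 14 for striated muscle, 1 and 4 for liver cells, 0 and 7 for nervous tissue, 5 and 1 for red blood cells, 2 and 4 for white blood cells, 0 and 1 for epithelium, 0 and 1 for smooth muscle, 2 and 11 for germ cells and 0 and 2 for thymocytes. Some of these rested on the libraries that stood apart. Without them the calls of miR-122-5p in lung (-4.29 to -0.46) and in adrenal gland were lost. So were those of miR-1-3p in lung (-1.44 to -1.01) and in adrenal gland (-2.15 to 0.55).

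Whether adult males and females differed was asked at week 21 in the 9 organs of both sexes. No member was called, at 0 of 63 tests by edgeR at an adjusted p under 0.05, with 12 of 63 at an unadjusted p under 0.05 and 3 called by DESeq2. Over all miRNAs 0.92% of tests were called higher in males and 0.613% higher in females by edgeR. Of all 5544 tests, 573 had an unadjusted p under 0.05 by edgeR, and DESeq2 called 82 higher in males and 56 higher in females. The test closest to the threshold was miR-193b-3p in kidney, with 76.9, 104, 118 and 100 CPM in male replicates 1 to 4 and 46.0, 87.1, 44.7 and 65.4 CPM in female ones. Of these males 3 of 4 lay above every female, and the difference was 0.61 (SE 0.17, adjusted p = 0.0521). The DESeq2 calls were this one (0.58, adjusted p = 0.0182), miR-365-3p in adrenal gland (0.79, adjusted p = 0.0382) and miR-378a-5p in adrenal gland (1.14, adjusted p = 0.0382), each higher in males. The only tests without overlap went the other way and were not called: in liver all 4 females lay above all 4 males for miR-193b-3p (-0.60, adjusted p = 0.482) and for miR-378a-5p (-0.48, adjusted p = 0.482). In adrenal gland the male values included the replicates 1 and 3 that stood apart. Without the libraries that stood apart edgeR gave 0 calls of members, and 8 of 63 at an unadjusted p under 0.05. In that setting 469 of the 5544 tests of all miRNAs had an unadjusted p under 0.05.

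Averaged over the 4 ages, edgeR called 4 of 63 tests of members higher in males and 0 higher in females, where 0.812% and 0.577% of all tests were called. These were miR-378a-3p (0.74, adjusted p = 0.0319), miR-378a-5p (0.77, adjusted p = 0.0218) and miR-193b-3p (0.53, adjusted p = 0.0319) in adrenal gland and miR-193a-3p (0.78, adjusted p = 0.0323) in thymus. Without the libraries that stood apart, an alternative chosen after seeing the data, all 4 calls were lost, the same differences being 0.34, 0.36 and 0.31 in adrenal gland and 0.57 (adjusted p = 0.0861) in thymus. All 4 were also lost with the lane covariate, and the 3 in adrenal gland under total count alone. For the same average DESeq2 called 6 tests higher in males and 1 higher in females, miR-378a-5p in heart (-0.21, adjusted p = 0.0183). The shares over all miRNAs given above are those of edgeR and give no background for these DESeq2 counts. At the adult age alone, adrenal levels of miR-378a-3p were 18884, 8916, 31902 and 4868 CPM in males and 10379, 7069, 15604 and 11744 CPM in females, so that both sexes overlapped. A change of the sex difference between weeks 2 and 21 was called for 0 of 63 tests by edgeR. Of these tests 7 had an unadjusted p under 0.05, and DESeq2 called 1 (miR-193a-3p in kidney, adjusted p = 0.0304). Over the 5544 tests of all miRNAs edgeR called 0.667%, with 561 at an unadjusted p under 0.05. For them DESeq2 called 72 upward and 42 downward.

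Ratios within a sample need no scaling between samples and ask whether members of a pair moved together. The 2 miRNAs of the common seed did not: miR-193a-3p gained on miR-193b-3p in liver, spleen and thymus from week 2 to week 21. They differ by a single base over their shared length, and reads of one counted as the other were not tested for. In kidney miR-193b-3p gained on miR-365-3p, and in thymus and spleen miR-365-3p gained on miR-193b-3p. The ratio of the arms of miR-378a was called in heart and lung alone. Each ratio was taken as log2 of counts with 0.5 added and compared by an exact two-sided permutation test, with p-values adjusted over all 33 tests, of which 10 were called higher at week 21 and 7 lower. Without the libraries that stood apart 8 and 5 were called.

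In liver the ratio of miR-193a-3p to miR-193b-3p was between -0.46 and 1.64 at week 2 (mean 0.48, n = 8) and between 1.73 and 4.10 at week 21 (mean 2.88, n = 8). The groups did not overlap, and the difference of 2.39 had an exact permutation p of 0.0001554, the smallest this design can give (adjusted p = 0.00171). Calls in the same direction were spleen (1.64), brain (1.53), thymus (adjusted p = 0.00769 by exact permutation) and lung (0.51, not called without the libraries that stood apart), and the ratio was lower at week 21 in heart (-0.78) and skeletal muscle (-0.77). Brain had the lowest mean ratio, at -4.91 and -3.38, though at week 21 its samples ran from -5.75 to -1.05 and overlapped those of other organs, and adrenal gland the highest at week 2, at 1.18. The change in brain was 1.19 and still called without the libraries that stood apart, and was not called without replicate 2 (0.92), replicate 3 (1.41) or replicate 4 (1.84). Leaving out replicates, 3 of the 4 ways also lost the calls in heart and in skeletal muscle, all 4 that in lung and 1 that in thymus, while liver and spleen kept theirs. In spleen, age and RNA integrity cannot be told apart, since the study states low integrity for the juvenile spleens.

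For miR-365-3p to miR-193b-3p, whose listed hairpins lie far apart, kidney went from a mean of 0.82 (0.24 to 1.21) to -0.50 (-1.18 to 0.06) and thymus from 0.18 (-0.29 to 0.68) to 1.39 (0.69 to 2.54). Neither organ had overlapping groups, and both had the smallest p the exact permutation test can give (adjusted p = 0.00171). Other calls were spleen (1.15), brain (0.60, not called without the libraries that stood apart), lung (0.57), liver (0.51), adrenal gland (-0.66) and heart (-0.38). Of these only spleen was called whichever replicate was left out, and lung, liver, adrenal gland and heart each lost the call in 3 of the 4 ways. The study states low RNA integrity for the juvenile spleens, so age and RNA integrity cannot be told apart there. In uterus the difference was -1.40 without overlap between 4 and 4 samples, where the smallest exact permutation p is 0.0286, and the adjusted p was 0.0524.

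The ratio of miR-378a-3p to miR-378a-5p had organ means between 6.07 (testis) and 7.28 (liver) at week 2. As ratios of summed counts, organs ran from 68.5 (testis) to 156 (liver) at week 2 and from 82.4 (skeletal muscle) to 163 (kidney) at week 21. Between the ages it was called only in heart (-0.30, adjusted p = 0.0459 by exact permutation) and lung (-0.39, adjusted p = 0.0436), and in neither without the libraries that stood apart or whichever replicate was left out. Kidney was called only without replicate 2 (adjusted p = 0.0408 by exact permutation). In testis the difference was 0.80 between 4 and 4 samples and was not called (adjusted p = 0.135 by exact permutation).

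**Figure D3:**
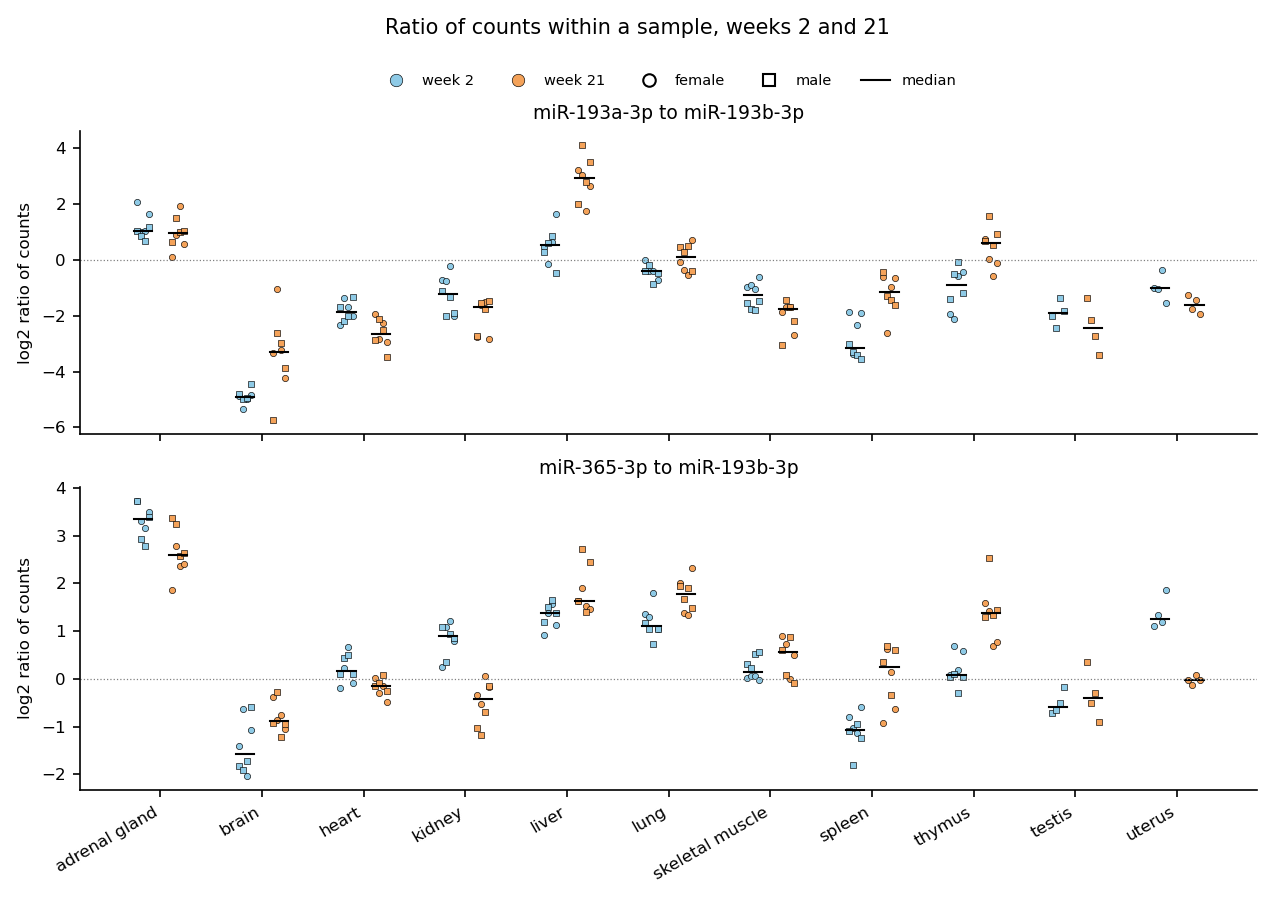
Log2 ratio of counts within each sample, for miR-193a-3p to miR-193b-3p and for miR-365-3p to miR-193b-3p, by organ at weeks 2 and 21, with medians as bars. The groups of the first ratio do not overlap in liver, and those of the second do not overlap in kidney, thymus and uterus.

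Finally, each of the 5 members with a mean count of at least 10 was set beside the 456 others of this abundance by Pearson's r over the 44 groups of organ and age (mean log2 of CPM plus 1). The points share organs and libraries, so r is a description. Most like miR-378a-3p were miR-378a-5p (0.973), miR-378b (0.955) and, well below, miR-365-3p (0.632). For miR-378a-5p they were miR-378a-3p (0.973), miR-378b (0.965) and the muscle miRNA miR-1-3p (0.688). Whether counts of miR-378b held changed reads of miR-378a-3p was not tested.

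The pattern of miR-365-3p was closest to that of miR-193a-3p, its neighbour on chromosome 10, at 0.871, followed by miR-378a-3p (0.632) and miR-122-5p (0.578). Next to miR-193a-3p came miR-365-3p (0.871) and both arms of the liver miRNA miR-122, miR-122-3p (0.762) and miR-122-5p (0.749), for which Spearman's coefficient was 0.408 and 0.403. For miR-193b-3p no miRNA came close, with miR-378a-5p (0.490), miR-378b (0.477) and miR-378a-3p (0.475) at the top. Its r with miR-193a-3p, of the same seed, was 0.219 and ranked 44 of 456. Its r with miR-365-3p was 0.327, which placed it 25 of 456 among the miRNAs set beside miR-365-3p.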

How the data were processed

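Raw counts for 616 miRNAs in 320 samples were used as deposited, made by the authors from small RNA libraries with fastp 0.23.2 and Bowtie 1.3.1 against miRBase and other transcripts, with rn7 as the genome, and CPM (a count over its column total, times 1e6) were computed here from the deposited columns. Libraries carried no molecular identifiers, and the Wilson intervals of single samples cover counting error only. The SEs and p-values of the tests rest on the spread between samples. Brain male week 6 replicate 3 and spleen female week 104 replicate 4, removed by the study, were left out.

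Members and lists were chosen with earlier results of these data known. Named were every entry called rno-miR-378a, rno-miR-193a, rno-miR-193b or rno-miR-365, the 3 miRNAs most like each member with a mean count of at least 10, the lists of brown fat promoting, brown fat opposing and lipid and glucose miRNAs, and markers of striated muscle, liver cells, nervous tissue, red blood cells, white blood cells, epithelium, smooth muscle, germ cells and thymocytes.

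Tests used edgeR 4.0.16 (quasi-likelihood, TMM) in R 4.3.3, 1 fit per age for organs and 1 per organ for age and sex, adjusted by Benjamini-Hochberg over all 616. Calls needed an adjusted p under 0.05, and 2-fold for organs and ages. Ratios, permutation tests and figures used Python 3.11.15, NumPy 2.4.6, pandas 2.3.3, SciPy 1.17.1 and matplotlib 3.10.9. Alternatives were scaling by library size, DESeq2 1.42.0, all 320 samples, only miRNAs averaging 10 counts or more, adjusted p alone, a lane covariate over the 8 sequencing lanes, a replicate block, other pseudocounts, Spearman's coefficient and leaving out replicates. Leaving out libraries that stood apart, and thymus male week 104 replicate 1, was chosen after seeing the data. Fits were tested on simulated data.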

Additional observations from a re-analysis of the deposited data

Results flagged for a closer look

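In each organ and age, the lowest and highest samples of each member averaging 10 counts or more there were checked for a gap to the nearest sample that is large relative to the group's whole range, on the log2 scale. Of 224 groups tested, 14 had such a sample. Chance gives about 1 in 20, so this count is close to chance.

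For miR-365-3p there were 6. Adrenal gland female week 2 replicate 3 was lowest, at 121 CPM against 241 for the nearest (gap over range 0.584). Brain female week 2 replicate 3 was lowest, at 29.3 against 51.4 CPM (0.677). Brain female week 104 replicate 4 was highest, at 61.0 against 36.9 CPM (0.581). Heart male week 104 replicate 3 was highest, at 122 against 67.6 CPM (0.64). Lung male week 2 replicate 3 was lowest, at 63.7 against 95.6 CPM (0.621). Skeletal muscle male week 6 replicate 3 was highest, at 201 against 144 CPM (0.539).

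For miR-378a-5p, heart female week 6 replicate 1 was lowest, at 145 against 183 CPM (0.559), heart female week 104 replicate 2 was highest, at 185 against 146 CPM (0.57), and testis male week 21 replicate 2 was highest of 4, at 28.6 against 15.6 CPM (0.831). For miR-193b-3p, adrenal gland female week 2 replicate 3 was lowest again, at 13.2 against 22.8 CPM (0.527), brain male week 6 replicate 4 was lowest, at 59.4 against 90.2 CPM (0.619), and heart female week 6 replicate 1 was lowest again, at 28.4 against 70.4 CPM (0.778). For miR-193a-3p, heart male week 104 replicate 3 was highest again, at 45.1 against 12.6 CPM (0.646), and liver female week 2 replicate 4 was highest, at 472 against 210 CPM (0.539). That adrenal gland held summed liver markers at 939 CPM, where the group's median was 191 CPM.

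The last 2 are differences between organs that were called when tested directly, for pairs of organs chosen after their values were seen. Each pair joins an organ already called higher and an organ already called lower, so these p-values restate those calls. The change of miR-193b-3p from week 2 to week 21 was 3.89 larger in uterus than in spleen on the log2 scale (adjusted p = 2.23e-17 by edgeR). That of miR-193b-5p was 4.44 larger in skeletal muscle than in spleen (adjusted p = 0.000123), from counts near 0. The calls it combines were lost in 3 settings in skeletal muscle and in 6 in spleen.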

How the results depend on the processing

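Under library size alone, calls of the members at week 21 against week 2 numbered 11 higher and 6 lower, against 19 and 2. Lower calls were 1 with DESeq2, 1 at a mean count of at least 10 and 1 with all 320 samples. By adjusted p alone they were 36 higher and 4 lower, and 11 lower at week 104 against week 21, against 7. At week 21, against 0 calls higher in males, there were 3 with DESeq2 and 1 with the replicate block. A mean count of at least 10 gave 1. The separate contrast averaged over the 4 ages gave 4, and 0 without the libraries that stood apart. In thymus 3 calls were left of 5 without male week 104 replicate 1, and 3 without all libraries that stood apart, which leave fewer samples. The difference of miR-193b-3p in testis, 1.34, turned to -0.0370 under library size alone. The cause was not tested.

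Leaving out each replicate number gave 18 to 22 higher and 1 to 2 lower at week 21 against week 2, 6 to 9 and 6 to 7 at week 104 against week 21, 0 to 2 in males, and for organ pairs 199 up to the full number, 219 to 232, 230 to 249 and 245 to 261. Called ratios were 5 to 7 higher and 1 to 3 lower, against 10 and 7, with fewer samples. With the replicate block, organ pairs gave 211, 226, 241 and 257, ages 19 and 2, then 7 and 6, and ratios 8 and 5. The block pairs samples by number only: mean correlations of same-numbered samples were 0.0103 between organs, -0.0136 and 0.0093 between ages and 0.00697 between sexes.

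Of the 21 and 15 single calls between ages, 13 and 12 held under library size alone, and 19 and 14 with DESeq2. All 33 ratio tests held with a pseudocount of 1. The 15 likeness values moved by different amounts with Spearman's coefficient. For miR-378a-3p and miR-378a-5p 0.973 became 0.979, and for miR-193a-3p and miR-122-5p 0.749 became 0.403. Depth limits the 5p arms of miR-193a and miR-193b, where a few counts decide a fold.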

Other observations

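The 2 samples that the study removed were in no comparison. Brain male week 6 replicate 3 had 7942 CPM of miR-378a-3p (Wilson 95% interval 7875 to 8011), where the other 7 samples of its organ and age had 3092 to 4676 CPM. It also had 29.8 CPM of miR-193a-3p (25.9 to 34.3) against 1.66 to 4.73 CPM, and 91.6 CPM of miR-365-3p (84.6 to 99.2) against 27.4 to 55.1 CPM, while its miR-193b-3p, at 63.3 CPM, lay within the range of the others, 59.4 to 117 CPM. Spleen female week 104 replicate 4 had 12064 CPM of miR-378a-3p against 8028 to 12135 CPM and 126 CPM of miR-365-3p (118 to 133) against 40.0 to 91.0 CPM.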
